A study of Mus musculus with 8 samples.

Results

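Faithful chromosome segregation in mitosis and meiosis runs through the kinetochore, the protein assembly on each centromere that grips spindle microtubules, and through the spindle checkpoint, which holds the anaphase-promoting complex (APC/C, a ubiquitin ligase) in check until every kinetochore is attached. The genes described here are the rows of a mouse testis expression table whose symbol begins with Cenp, plus 30 named genes of the outer kinetochore, the checkpoint, the chromosomal passenger complex, spindle kinases and APC/C control. The rule used symbols only, not measured values, and gave 51 of the 17121 genes in the table, with each named symbol present. The 51 members lay above the filter on low values and were all tested.

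The series asks how N6AMT1, a methyltransferase, acts in the making of sperm, by RNA-seq of testis. Of its libraries 4 carry CTL as their genotype and 4 carry N6amt1-SKO, called CTL 1 to 4 and SKO 1 to 4 below. The labels do not spell out SKO and give no strain, age, Cre driver or other allele for either group. Whether each library is a different animal is not stated, and p-values cover the spread between these libraries only, which may be technical. In bulk testis, fewer cells of a type and less RNA per cell cannot be told apart.

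In the testis, spermatogonia divide by mitosis and spermatocytes pass through a long prophase before both meiotic divisions. Kinetochore and division genes are used in each of these, and several members, such as Aurkc and Meikin, are known from germ cells. Meiosis I differs from mitosis in that sister kinetochores face the same pole, cohesin at centromeres is protected by shugoshin, and separase cuts only the cohesin on chromosome arms.

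In 6 libraries the deposited values are read counts times a factor, rounded. The factor could be read from gaps between the values and gave 40.6 to 70.1 M reads per library, with 171 to 48249 reads behind a member's value. CTL 1 and CTL 2 showed no gaps, so they may hold plain counts or counts times a factor below 1, and at least 102 and 103 M reads lie behind their totals. The share of all values that fell to 18S ribosomal RNA was 0.721% to 0.969% in CTL 3, CTL 4 and SKO 4 and 0.173% to 0.273% elsewhere. These are called the higher and lower 18S libraries, and the results for the called members and several others are also given within them, where the higher set holds 1 SKO library. N6amt1 itself had 513 ± 84.6 in CTL and 582 ± 31.1 in SKO (SD, n = 4 per group, limma adjusted p = 0.437), so the level of the targeted gene does not check the genotype labels. The tissue is labelled testis while the extraction text names heart ventricles. The spermatocyte gene Piwil1 had 57969 ± 4655 in CTL and 34862 ± 5243 in SKO (SD, n = 4 per group), and the heart troponin gene Tnni3 1391 ± 315 in CTL and 4041 ± 827 in SKO (SD, n = 4 per group). Of 10 heart muscle markers listed, Myl2, Myl3, Actc1, Nppa and Nppb have no row in the expression table.

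The promoters of 5 of the 6 members that fell and of the 1 that rose are shown because late cell cycle genes are known to share a pair of short elements near their start: the CHR element TTTGAA, bound by the MuvB complexes, and CCAAT boxes, bound by NF-Y. Each line holds 170 bases before the RefSeq gene start and 30 after it (GRCm38.p6), read 5′ to 3′ along the gene. Capitals mark TTTGAA or CCAAT on either strand, so that TTCAAA and ATTGG also appear in capitals.
Espl1 chr15:102296123-102296322 (plus strand): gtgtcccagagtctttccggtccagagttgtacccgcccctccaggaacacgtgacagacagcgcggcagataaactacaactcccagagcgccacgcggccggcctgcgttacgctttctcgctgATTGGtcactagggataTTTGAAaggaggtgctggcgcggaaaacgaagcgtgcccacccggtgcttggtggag
Cenpn chr8:116921570-116921769 (plus strand): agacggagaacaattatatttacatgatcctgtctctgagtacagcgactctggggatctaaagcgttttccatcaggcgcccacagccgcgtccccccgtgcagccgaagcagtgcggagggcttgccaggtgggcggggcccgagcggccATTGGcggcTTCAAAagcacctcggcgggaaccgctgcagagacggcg
Aurka chr2:172370541-172370740 (minus strand): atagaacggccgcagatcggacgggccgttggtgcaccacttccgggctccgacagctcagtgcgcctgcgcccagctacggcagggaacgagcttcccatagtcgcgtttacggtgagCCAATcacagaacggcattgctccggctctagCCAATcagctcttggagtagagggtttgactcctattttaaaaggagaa
Birc5 chr11:117849067-117849266 (plus strand): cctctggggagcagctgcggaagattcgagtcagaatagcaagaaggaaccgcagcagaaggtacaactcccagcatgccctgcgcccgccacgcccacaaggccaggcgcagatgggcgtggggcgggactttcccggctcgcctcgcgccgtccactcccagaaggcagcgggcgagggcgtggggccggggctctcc
Plk4 chr3:40799781-40799980 (plus strand): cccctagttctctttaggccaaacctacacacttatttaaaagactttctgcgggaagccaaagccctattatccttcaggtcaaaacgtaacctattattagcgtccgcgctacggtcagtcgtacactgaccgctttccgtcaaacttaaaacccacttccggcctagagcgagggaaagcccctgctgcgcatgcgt
Cenpb chr2:131180038-131180237 (minus strand): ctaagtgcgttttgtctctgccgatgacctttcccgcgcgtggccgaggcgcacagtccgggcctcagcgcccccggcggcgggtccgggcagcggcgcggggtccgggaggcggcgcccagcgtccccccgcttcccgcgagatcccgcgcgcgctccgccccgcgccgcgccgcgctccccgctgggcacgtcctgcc
In the stretches shown, Espl1 and Cenpn hold both elements, Aurka holds CCAAT on 2 occasions, and Birc5, Plk4 and Cenpb hold neither. A TTTGAA match of Aurka begins at position 33 after the start, just past the printed end. Over whole windows of 300 bases (250 before and 50 after the start), TTTGAA on either strand was found in 18 of the 51 promoters (35.3%) of the 45 members matched by symbol in the RefSeq table, and in 13% of the 16533 promoters of genes in the expression table. CCAAT was found in 35 of the 51 (68.6%) and in 37.8% of those of the table. Motifs were counted separately whether or not their matches overlap, and a match is a description of letters, not of binding. The MYB-type motif AACNGTT, on either strand, was found in 0 of the 51 and in 3.92% of the promoters of genes in the table.

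Of the 51 members, 6 fell, 1 rose and 44 did not pass (limma, adjusted p below 0.05 over all 17066 genes tested). Separase (Espl1), Aurora A (Aurka), Polo-like kinase 4 (Plk4), survivin (Birc5), Cenpn and the APC/C inhibitor Fbxo43 fell by 1.31-fold to 1.79-fold, and Cenpb rose 1.51-fold. The 7 called members are 13.7% of the 51, against 19.9% called among all genes tested. Those that fell are 11.8% of members against 7.93% of all genes, and the 1 that rose is 1.96% against 11.9%. In 10 members (19.6%) the groups did not overlap, against 26.1% of all genes tested. These shares depended on the libraries and the fit. Without CTL 1 and CTL 2, 23 members were called lower and 1, Cenpa rather than Cenpb, higher (limma). That is 47.1% of the 51, against 24.2% of all genes (13.7% lower and 10.6% higher). This fit leaves CTL with libraries of the higher set only, while SKO holds 1 of these, so group and library set are mixed. The mean of these CTL libraries was above that of CTL 1 and CTL 2 for 39 of 51 members. Within the lower set the share called was 29.4%, against 32.2% of all genes (limma). With the library set as a covariate it was 35.3% against 29.4%.

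The members' log2 fold changes leaned to the lower side. 38 of 51 were below 0 (74.5%, against 47.5% of all genes tested), with a median of -0.34 against 0.04 for all genes. This lean was smaller inside the library sets, with medians of -0.15 in the lower and -0.24 in the higher 18S libraries (all genes 0.03 and 0.07), and -0.21 with the library set as a covariate. With column totals as the scaling the median of all genes moved to 0.33 and that of the members to -0.05. With it 29 of 51 members were below 0. The members' median minus that of all genes was -0.38 with either scaling. A change of scaling shifts nearly all genes by the same amount, so this distance could hardly move and is no check of the lean. Within the lower 18S libraries that distance was -0.18, and within the higher ones -0.31. With column totals none of the 6 falls passed (limma, 13 members at an unadjusted p below 0.05) and 4 members were called higher, Cenpb, Cenph, Fbxo5 and Mad2l1. Column totals called 31.3% of all genes, 28.6% higher and 2.67% lower.

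**Figure D1:**
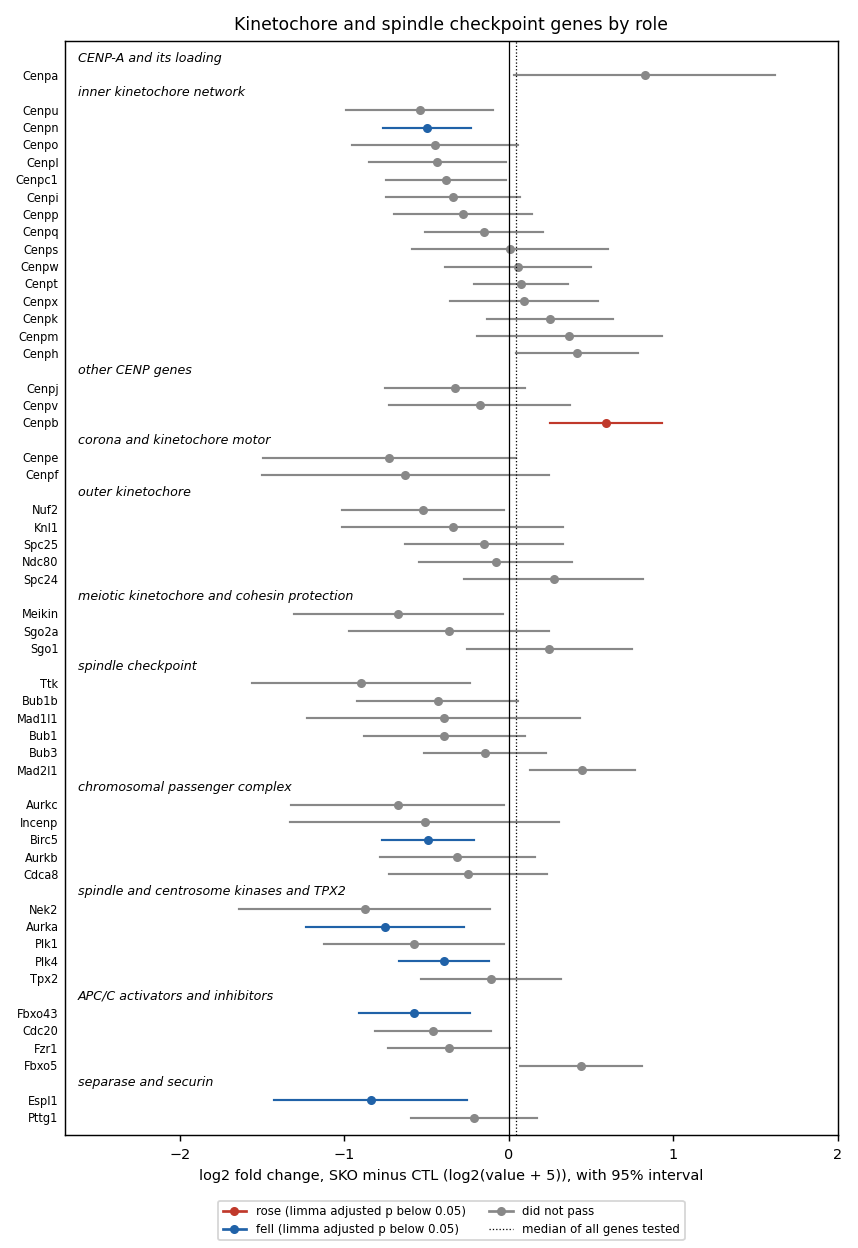
Log2 fold change (SKO minus CTL, on the log2(value + 5) scale) of the 51 members with its 95% interval, grouped by role; 8 libraries, 4 per group. 38 of 51 points lie left of 0, 6 passed the test as lower (blue) and Cenpb as higher (red), and the dotted line is the median of all genes tested at 0.04.

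Cenpa encodes the histone H3 variant that marks centromeres. Its normalised values (deposited values divided by the scaling factor of the library) gave values of 852, 845, 395 and 367 across CTL 1 to 4 and of 1383, 1151, 1091 and 604 across SKO 1 to 4. CTL 3 and CTL 4 were the lowest in CTL and SKO 4 the lowest in SKO, and the groups overlapped. The log2 fold change was 0.83 (standard error 0.35, 95% interval 0.03 to 1.62, limma adjusted p = 0.122). Within the sets it was 0.50 and 0.66, and with the library set as a covariate Cenpa passed (0.56, limma adjusted p = 0.0196).

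Of 15 members of the constitutive inner kinetochore network, which sits on CENP-A chromatin, 1 fell and 14 did not pass. Their log2 fold changes were -0.54 to 0.41, with 8 of 15 below 0 (6 with column totals). That is 6.67% fallen, against 7.93% of all genes tested, and 53.3% below 0, against 47.5%. Cenpn, whose product reads the CENP-A nucleosome (chromosome 8, 116921730 to 116941507), fell. It had values of 19794, 19101, 16959 and 19131 across CTL 1 to 4 and of 14678, 12449, 12619 and 13449 across SKO 1 to 4. Each SKO library lay below each CTL library, and neither group split by 18S set. The mean went from 18746 ± 1234 to 13299 ± 1018 (SD, n = 4 per group), a log2 fold change of -0.50 (standard error 0.12, limma adjusted p = 0.023). It was -0.56 within the lower and -0.41 in the higher 18S set. Per kb of transcript Cenpn had the highest CTL level of this network, 10603 normalised units per kb, against a range of 489 to 2766 for the other 14.

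Cenpu, which works in the same network beside CENP-Q, had values of 4265, 3893, 5268 and 5220 across CTL 1 to 4 and of 2915, 2674, 2807 and 4618 across SKO 1 to 4. SKO 1 to 3 lay below all CTL libraries and SKO 4 did not, and it did not pass (limma adjusted p = 0.0788). Its log2 fold change was -0.54 in the lower 18S set, where it was called (limma adjusted p = 0.0221), and -0.18 in the higher. As 26.7% of its exon bases overlap Primpol on the other strand and the library kit does not mark strand, the value is uncertain. The largest positive change of the network was that of Cenph, 0.41 (95% interval 0.04 to 0.78, limma adjusted p = 0.101), with values of 704, 796, 612 and 579 across CTL 1 to 4 and of 1016, 892, 769 and 907 across SKO 1 to 4. Exons of Cenpo and Cenpp overlap Adcy3 and Ippk on the other strand over 19% and 12.3% of their exon bases, and neither passed.

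Cenpb encodes the protein that binds a sequence box in centromeric satellite DNA (chromosome 2, 131175182 to 131180067), and it was the 1 member that rose. It had values of 5350, 4423, 6462 and 4948 across CTL 1 to 4 and of 6843, 7678, 8751 and 8486 across SKO 1 to 4. The lowest SKO library stood above the highest CTL library, with little distance between SKO 1 and CTL 3. The average moved from 5296 ± 865 to 7940 ± 862 (SD, n = 4 per group), a log2 fold change of 0.59 (standard error 0.15, limma adjusted p = 0.0278), and 0.66 and 0.59 within the lower and higher 18S libraries. Its promoter window had the highest GC content of all member promoters, 75.7%, and none of the motifs. Cenpj, a centriole growth gene despite its name, and Cenpv did not pass (log2 fold changes of -0.33 and -0.18; limma adjusted p = 0.241 and 0.645). Cenpv had the highest CTL level per kb of the 51 members, 21105.

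At the outer kinetochore the NDC80 complex and KNL1 bind microtubules and recruit the checkpoint. Of these 5 genes none passed (limma), and 1 (Nuf2) had an unadjusted p below 0.05. Nuf2 had values of 11852, 10610, 16101 and 18028 across CTL 1 to 4 and of 7922, 8830, 9079 and 13523 across SKO 1 to 4, lower in SKO 1 to 3 than in any CTL library, with SKO 4 inside the CTL range (limma adjusted p = 0.118). It was called in the lower 18S set (-0.39, limma adjusted p = 0.045) and had -0.33 in the higher. Ndc80 had values of 4028, 3412, 4135 and 4826 across CTL 1 to 4 and of 3369, 3149, 3558 and 5826 across SKO 1 to 4, and SKO 4 was the highest of all 8. Its log2 fold change of -0.08 had a 95% interval of -0.54 to 0.39. Levels of the subunits differed. CTL means per kb of transcript were 5883 for Nuf2, 1863 for Ndc80 and 649 for Spc24, the highest change of the group (0.27). Knl1 had values of 4597, 4213, 6489 and 10704 across CTL 1 to 4 and of 3329, 5171, 4874 and 6194 across SKO 1 to 4, with CTL 4 far above the rest (limma adjusted p = 0.443).

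The corona proteins CENP-E, a kinesin that carries chromosomes to the spindle middle, and CENP-F come from long transcripts of 7910 and 11130 bases. Cenpe had values of 15330, 14930, 35312 and 34656 across CTL 1 to 4 and of 11029, 12480, 12309 and 22067 across SKO 1 to 4. Cenpf had values of 21100, 18844, 50566 and 58677 across CTL 1 to 4 and of 15700, 19379, 20846 and 32507 across SKO 1 to 4. In both genes CTL 3, CTL 4 and SKO 4 were the 3 highest libraries, and the groups overlapped. In Cenpe each SKO library lay below each CTL library of its own 18S set. Neither passed (log2 fold changes -0.73 and -0.63; limma adjusted p = 0.156 and 0.27), nor did either have an unadjusted p below 0.05. Within the lower 18S libraries Cenpe was called (-0.35, limma adjusted p = 0.0468, where 32.2% of all genes were called). Cenpe also passed with the library set as a covariate (-0.46, limma adjusted p = 0.0143).

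Meikin, the kinetochore protein that sets up meiosis I, had values of 2003, 2138, 3308 and 3431 across CTL 1 to 4 and of 1352, 1283, 1529 and 2819 across SKO 1 to 4. SKO 1 to 3 were below all CTL libraries, while SKO 4 lay among them. Its log2 fold change was -0.67 (95% interval -1.31 to -0.04, limma adjusted p = 0.116), -0.58 within the lower (limma adjusted p = 0.0247) and -0.25 in the higher 18S set. Sgo2a, the shugoshin that shields centromeric cohesin in meiosis, had 3160 ± 1101 in CTL and 2411 ± 690.2 in SKO (SD, n = 4 per group, limma adjusted p = 0.362). However, 35% of its exon bases overlap Kctd18 on the other strand, and 33% of its 75-base stretches recur in transcripts of Kctd18 or Sgo2b. Sgo1, the mitotic shugoshin, had the lowest CTL level per kb of all members, 177, with means of 644 ± 189.6 in CTL and 749.9 ± 126 in SKO (SD, n = 4 per group, limma adjusted p = 0.458).

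None of the 6 spindle checkpoint genes passed (limma), and 2 had an unadjusted p below 0.05. These were Ttk and Mad2l1, which went opposite ways. Ttk encodes MPS1, the kinase that starts checkpoint signalling, and had values of 8118, 8865, 15158 and 21262 across CTL 1 to 4 and of 5130, 7284, 6777 and 7602 across SKO 1 to 4. Each SKO library lay below each CTL library, but CTL 3 and CTL 4 stood far above CTL 1 and CTL 2. Its log2 fold change was -0.90 (standard error 0.30, limma adjusted p = 0.0591), -0.42 within the lower and -1.23 in the higher 18S set. Ttk passed with the library set as a covariate (-0.71, limma adjusted p = 0.0296).

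Mad2l1 encodes MAD2, the protein that seizes CDC20 while kinetochores are unattached. It had values of 2316, 1995, 1780 and 2378 across CTL 1 to 4 and of 2615, 2898, 2809 and 3178 across SKO 1 to 4, each SKO library above each CTL library, with no split by 18S set. The log2 fold change was 0.45 (standard error 0.14, limma adjusted p = 0.0528), 0.36 and 0.63 within the sets, and with the library set as a covariate it passed (0.46, limma adjusted p = 0.0355). Bub1, a kinase at the kinetochore, had 18033 ± 5566 in CTL and 13320 ± 1628 in SKO (SD, n = 4 per group). Bub1b, the pseudokinase of the checkpoint complex, had 12106 ± 3591 in CTL and 8740 ± 1317 in SKO (SD, n = 4 per group). Mad1l1, which brings MAD2 to kinetochores, had values of 3201, 2741, 7045 and 6280 across CTL 1 to 4 and of 2612, 2626, 3064 and 6163 across SKO 1 to 4, and its 3 highest libraries were the higher 18S libraries. These 3 and Bub3 had limma adjusted p-values of 0.18 to 0.563.

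**Figure D2:**
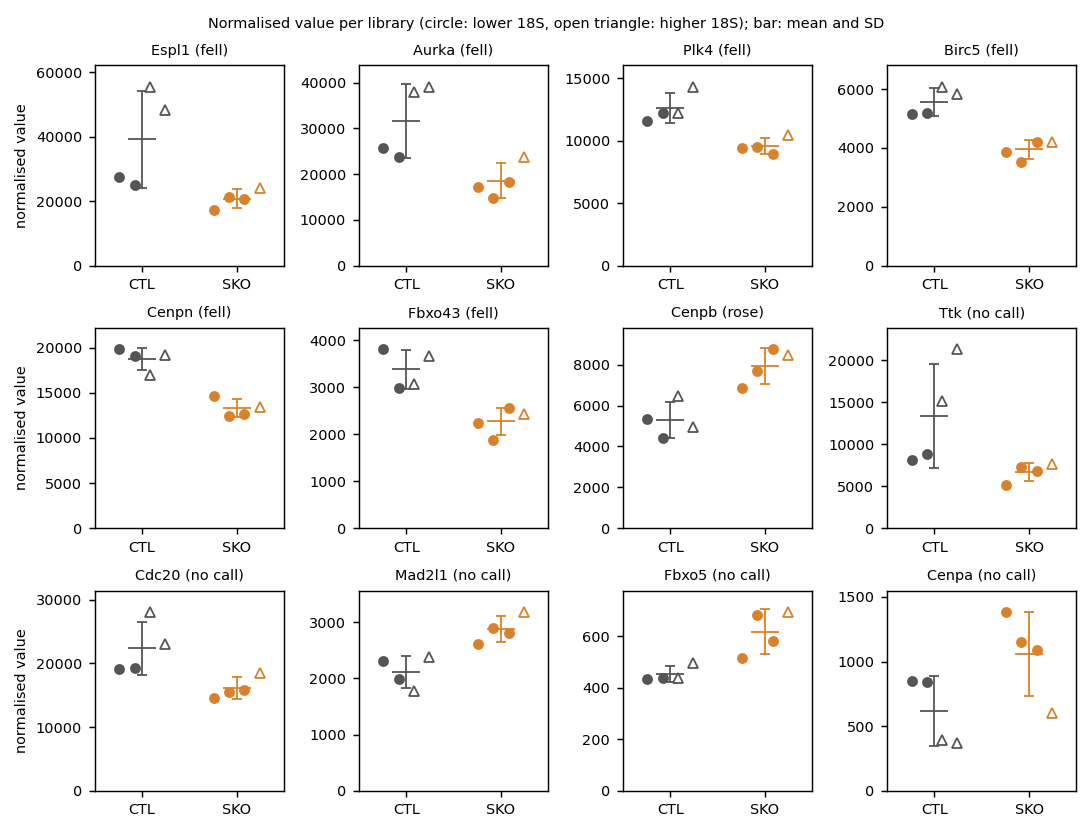
Normalised values of 12 members in each of the 8 libraries (dark, CTL; orange, SKO; filled circles, lower 18S libraries; open triangles, higher 18S libraries), with bars for the mean and SD of 4. Cenpn, Fbxo43, Mad2l1 and Cenpb part the groups with circles and triangles of CTL intermixed, whereas in Espl1, Aurka and Ttk the triangles of CTL stand well above its circles.

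The chromosomal passenger complex, which corrects faulty microtubule attachments, holds Aurora B or, in germ cells, Aurora C as its kinase. All 5 genes had log2 fold changes below 0 (-0.68 to -0.25), against 47.5% of all genes tested. With column totals it was 4 of 5, where that of Cdca8 was 0.04. Of the 5, 1 fell, where 7.93% of all genes tested fell. This was Birc5 (chromosome 11, 117849251 to 117855743), which encodes survivin, the subunit that docks the complex on chromatin. Birc5 had values of 5145, 5185, 6075 and 5849 across CTL 1 to 4 and of 3865, 3536, 4215 and 4209 across SKO 1 to 4. No SKO library reached the lowest CTL library. Mean values went from 5564 ± 469.5 to 3956 ± 324 (SD, n = 4 per group), a log2 fold change of -0.49 (standard error 0.13, limma adjusted p = 0.0272), and -0.42 and -0.49 within the sets.

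Aurkc had values of 2660, 2478, 3908 and 3794 across CTL 1 to 4 and of 1688, 1356, 1858 and 3514 across SKO 1 to 4, with SKO 1 to 3 below every CTL library and SKO 4 near CTL 3 and CTL 4. It did not pass (log2 fold change -0.68, 95% interval -1.32 to -0.03, limma adjusted p = 0.121), and 43.3% of its 75-base stretches recur in other loci, among them Gm7151 and Gm6909, so reads may be split with these copies. In the lower 18S set Aurkc was called (-0.66, limma adjusted p = 0.028), against -0.12 in the higher. Aurkb had values of 1889, 1826, 3176 and 2670 across CTL 1 to 4 and of 1758, 1766, 1660 and 2379 across SKO 1 to 4, and the groups overlapped (limma adjusted p = 0.312). Incenp, the scaffold of the complex, had values of 9897, 8880, 25746 and 15698 across CTL 1 to 4 and of 7974, 7719, 8238 and 16910 across SKO 1 to 4, with CTL 3, CTL 4 and SKO 4 the 3 highest (limma adjusted p = 0.339). Cdca8, borealin, had 10244 ± 2214 in CTL and 8674 ± 2325 in SKO (SD, n = 4 per group, limma adjusted p = 0.43).

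Among the 4 spindle and centrosome kinases and Tpx2, 2 of 5 fell, where 7.93% of all genes tested fell. All 5 log2 fold changes were below 0, against 47.5% of all genes, or 4 of 5 with column totals, where that of Tpx2 was 0.18. Aurora A, which builds spindle poles, comes from Aurka (chromosome 2, 172356190 to 172370535). It had values of 25677, 23695, 37931 and 39092 across CTL 1 to 4 and of 17203, 14837, 18387 and 23801 across SKO 1 to 4. SKO 4 was slightly above CTL 2, so the groups touched, and CTL 3 and CTL 4 were the highest. The group mean moved from 31599 ± 8037 to 18557 ± 3795 (SD, n = 4 per group), a log2 fold change of -0.75 (standard error 0.21, limma adjusted p = 0.0371), with -0.56 within the lower and -0.69 in the higher 18S set. Tpx2, which activates Aurora A on the spindle, had values of 11025, 9708, 15483 and 16033 across CTL 1 to 4 and of 10308, 11237, 12207 and 13931 across SKO 1 to 4, a log2 fold change of -0.11 with an interval of -0.53 to 0.32 (limma adjusted p = 0.721).

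Plk4 (chromosome 3, 40800019 to 40816883), the kinase that starts centriole duplication, had values of 11604, 12244, 12234 and 14297 across CTL 1 to 4 and of 9404, 9517, 8945 and 10466 across SKO 1 to 4. The groups did not overlap and the CTL libraries lay close together. The mean went from 12595 ± 1173 to 9583 ± 639 (SD, n = 4 per group), a log2 fold change of -0.39 (standard error 0.12, limma adjusted p = 0.0496), and -0.36 and -0.33 within the sets. Plk1, which acts at kinetochores and at mitotic entry, had values of 15185, 14661, 27138 and 16869 across CTL 1 to 4 and of 11434, 9884, 10355 and 17557 across SKO 1 to 4 (limma adjusted p = 0.117), with a call in the lower 18S set (-0.50, limma adjusted p = 0.0229) and -0.28 in the higher. Nek2, a kinase that parts the centrosomes, had values of 37268, 34264, 83133 and 78936 across CTL 1 to 4 and of 21352, 25120, 31264 and 43953 across SKO 1 to 4. SKO 4 was above CTL 1 and CTL 2, and Nek2 did not pass (log2 fold change -0.88, limma adjusted p = 0.0937). It did so with the library set as a covariate (-0.62, limma adjusted p = 0.0146). Nek2 and Aurka had CTL means of 18097 and 16587 per kb, the highest of the 51 after Cenpv.

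Among 4 regulators of the APC/C, 1 fell and 3 did not pass, and in 3 of 4 the groups did not overlap (19.9% of all genes tested were called and 26.1% did not overlap). Fbxo43 (chromosome 15, 36150060 to 36164884) encodes EMI2, the APC/C inhibitor known from meiosis. It had values of 3808, 2992, 3081 and 3669 across CTL 1 to 4 and of 2241, 1873, 2552 and 2430 across SKO 1 to 4. Each SKO library was below each CTL library. The mean went from 3388 ± 411 to 2274 ± 297 (SD, n = 4 per group), a log2 fold change of -0.58 (standard error 0.15, limma adjusted p = 0.0291), and -0.62 and -0.46 within the sets. Fbxo5, whose product EMI1 inhibits the APC/C in the mitotic cycle, had values of 432, 439, 436 and 497 across CTL 1 to 4 and of 515, 683, 579 and 693 across SKO 1 to 4, each SKO library above each CTL library. Its log2 fold change of 0.44 (95% interval 0.07 to 0.81) did not pass (limma adjusted p = 0.0854) and did so with the library set as a covariate (0.48, limma adjusted p = 0.047). Whether Fbxo43 and Fbxo5 differ in their response was not tested.

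Cdc20, the APC/C activator that the checkpoint restrains, had values of 19155, 19300, 28029 and 23018 across CTL 1 to 4 and of 14497, 15554, 15852 and 18516 across SKO 1 to 4. Its groups did not overlap, with SKO 4 close to CTL 1, and it did not pass (log2 fold change -0.46, standard error 0.16, limma adjusted p = 0.0653). It was called within the lower 18S libraries (-0.33, limma adjusted p = 0.0424) and with the library set as a covariate (-0.38, limma adjusted p = 0.0267). Fzr1, the activator CDH1 that takes over later, had values of 21126, 21397, 21260 and 14066 across CTL 1 to 4 and of 16855, 13744, 14937 and 14176 across SKO 1 to 4. CTL 4 was far below the other CTL libraries and inside the SKO range (limma adjusted p = 0.14). Fzr1 was called in the lower 18S set, which leaves CTL 4 out (-0.49, limma adjusted p = 0.0276), and had -0.28 in the higher.

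Separase, the protease that opens cohesin rings at anaphase, comes from Espl1 (chromosome 15, 102296266 to 102324357). It had values of 27619, 25129, 55451 and 48396 across CTL 1 to 4 and of 17169, 21238, 20575 and 24113 across SKO 1 to 4. All SKO libraries were below all CTL libraries, but SKO 4 came within a short distance of CTL 2, and CTL 3 and CTL 4 were far above CTL 1 and CTL 2. On average it went from 39149 ± 15064 to 20774 ± 2852 (SD, n = 4 per group), a log2 fold change of -0.84 (standard error 0.26, limma adjusted p = 0.0492). The change was -0.43 within the lower (limma adjusted p = 0.0424) and -1.10 inside the higher 18S set (limma adjusted p = 0.0382), and it was the 1 member called in the latter, where 2% of all genes were called, 1.7% lower and 0.301% higher. Pttg1, the securin that holds separase inactive, had values of 5367, 4510, 4833 and 4897 across CTL 1 to 4 and of 4530, 3356, 3720 and 5602 across SKO 1 to 4, with SKO 4 the highest of all (limma adjusted p = 0.399).

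The calls depended on single libraries. Without SKO 2 or without SKO 3 none of the 7 passed (limma), with 12 and 14 members at an unadjusted p below 0.05, and without SKO 3 no gene of the whole table passed (limma, smallest adjusted p = 0.0569, 4784 genes at an unadjusted p below 0.05). Of all genes 7.82% passed without SKO 2. Without CTL 3, and also without SKO 1, only Cenpn and Cenpb passed. That is 3.92% of the members in each fit, against 7.25% and 7.52% of all genes. Without CTL 1 the 5 called were Aurka, Birc5, Cenpn, Espl1 and Ttk, without CTL 2 these and Fbxo43, and without CTL 4 the 4 called were Birc5, Cenpn, Fbxo43 and Fzr1. The share of members called was 9.8% without CTL 1, 11.8% without CTL 2 and 7.84% without CTL 4. Of all genes 16.3%, 13.5% and 19.7% passed in these fits. Without SKO 4, 12 members passed, 6 of them among the 7 above, and Espl1 did not. These 12 are 23.5% of the members, against 23.4% of all genes, so their larger number is not particular to the members. Cenpn kept its call in 6 of the 8 such fits, Birc5 in 4, Aurka, Fbxo43 and Cenpb in 3, Espl1 in 2 and Plk4 in 1. Leaving out 1 library did not change the direction of any of the 7. This was largely fixed in advance, as the 7 were called on these same libraries and in all but Aurka the groups did not overlap. The log2 fold change ranged over -1.07 to -0.70 for Espl1, -0.93 to -0.65 for Aurka, -0.60 to -0.47 for Cenpn, -0.68 to -0.49 for Fbxo43, -0.57 to -0.44 for Birc5, -0.48 to -0.36 for Plk4 and 0.46 to 0.66 for Cenpb.

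In the lower 18S set more members passed, as did more genes of the whole table. Within these 5 lower 18S libraries 14 members were lower and 1 was higher (limma), which is 29.4% of the 51 against 32.2% of all genes (13.4% lower and 18.8% higher). All 7 members called over 8 libraries were among these 15. With the library set as a covariate 14 were lower and 4 higher, 35.3% against 29.4% of all genes (12.9% lower and 16.4% higher), again with all 7 among them. Beyond the 7, the covariate fit called Aurkc, Cdc20, Cenpe, Cenpu, Meikin, Nek2, Nuf2 and Ttk lower and Cenpa, Fbxo5 and Mad2l1 higher. Both fits use libraries that gave the 7 calls, so neither is independent support for them. The signs of the change were the same in both sets for 42 of 51 members, 32 lower and 10 higher, and opposite for 9. Cenpv was an example of the latter, with -0.58 within the lower and 0.30 within the higher set. The share of all genes with the same sign in both sets was not computed. A limma test of the group by set interaction called 0 of the 51 members (6 at an unadjusted p below 0.05, smallest adjusted p = 0.27) and 1 gene of the whole table (0.00586%).

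**Figure D3:**
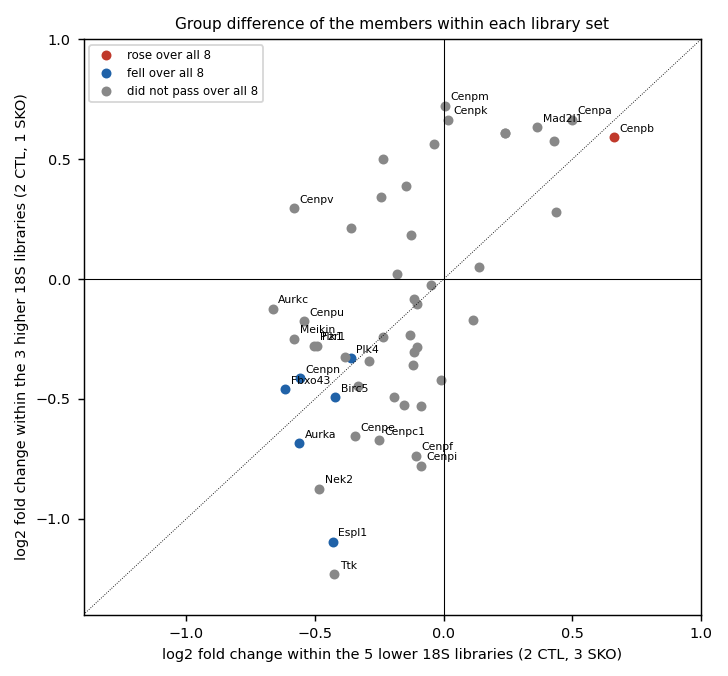
Log2 fold change (SKO minus CTL) of the 51 members within the 5 lower 18S libraries (horizontal axis) and within the 3 higher 18S libraries with their 1 SKO library (vertical axis); the dotted line marks equal changes. 32 members lie in the lower left and 10 in the upper right, with Espl1 and Ttk changed by -0.43 and -0.42 in the lower and -1.10 and -1.23 in the higher set.

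The CTL group itself split along these sets. CTL 3 and CTL 4 had higher mean log2 values than CTL 1 and CTL 2 for 39 of 51 members (76.5%, against 50.1% of all genes with a transcript length), with a median difference of 0.41 against 0.00173. The difference was over 1 on the log2 scale for 6 members, Cenpf (1.45), Cenpe (1.21), Nek2 (1.18), Mad1l1 (1.17), Incenp (1.10) and Ttk (1.08), and below -1 for Cenpa (-1.15). Across the 51 members its Spearman correlation with transcript length was 0.532, and across 16397 genes 0.474, both from the same 4 libraries. SKO 4 stood above the mean of SKO 1 to 3 for 45 of 51 members, with 1.08 for Incenp, 1.16 for Mad1l1 and -0.99 for Cenpa. The matching share over all genes was not computed, so this count cannot be read as particular to the members. After a correction for transcript length in each library, chosen after seeing the data, 8 members were lower and 1 higher, with Cdc20, Cenpu and Ttk added and Birc5 no longer called (limma adjusted p = 0.0648). That is 17.6% of the 51, against 25.3% of all genes called in the same fit.

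**Figure D4:**
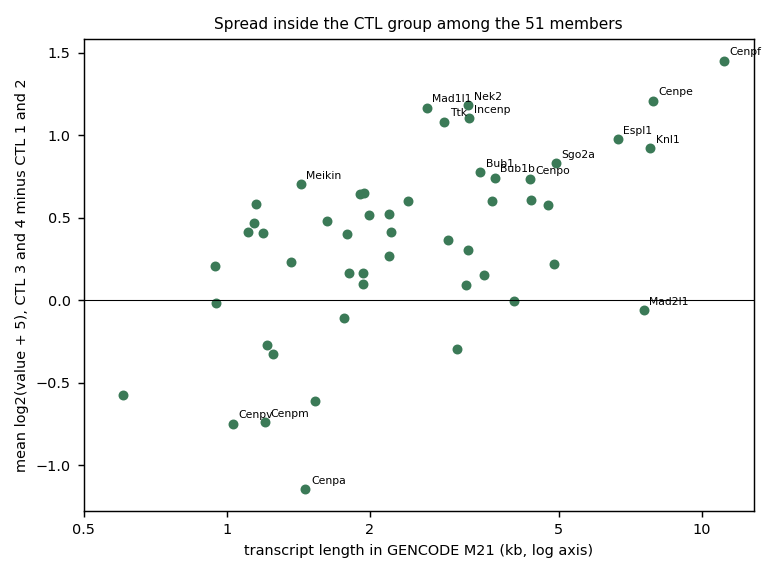
Difference between CTL 3 and 4 and CTL 1 and 2 in mean log2(value + 5) of each of the 51 members (vertical axis) against transcript length (horizontal log axis). Cenpf, the longest at 11130 bases, is highest at 1.45 and Cenpa, with 1466 bases, is lowest at -1.15.

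Other genes of the pathway, listed by function, gave 1 risen and 7 fallen of 74 (10.8% called against 19.9% of all genes; median log2 fold change -0.17). Of 16 APC/C subunits and their ubiquitin-conjugating enzymes 1 rose and 1 fell. Cdc27, a subunit that binds the activators, fell from 19061 ± 3479 to 12132 ± 1235 (SD, n = 4 per group, limma adjusted p = 0.0231) and Cdc16, another subunit of the same arm, rose from 3064 ± 162 to 4147 ± 453 (SD, n = 4 per group, limma adjusted p = 0.0437). Cdc27 had -0.46 and -0.83 and Cdc16 0.50 and 0.21 as log2 fold changes within the lower and higher sets. The call of Cdc16 was lost with median-ratio factors, where 0 of the 74 rose. This list had a median of 0.11. Of 24 further kinetochore and checkpoint genes 1 fell, Haspin, the kinase that marks histone H3 for the passenger complex. Haspin had values of 93027, 93345, 88678 and 80851 across CTL 1 to 4 and of 62064, 51383, 50442 and 51394 across SKO 1 to 4, a log2 fold change of -0.73 (limma adjusted p = 0.0134), -0.78 and -0.71 within the sets. Each SKO library lay below each CTL library.

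Of 20 spindle motors and microtubule factors 2 fell and 0 rose, where 7.93% of all genes tested fell and 11.9% rose. Kif20a, a kinesin of the central spindle, went from 16618 ± 5295 to 9017 ± 1307 (SD, n = 4 per group) and Prc1, which bundles microtubules there, from 18800 ± 7307 to 9714 ± 1413 (SD, n = 4 per group, limma adjusted p = 0.0336 and 0.0413). Their log2 fold changes were -0.49 and -0.45 in the lower and -1.05 and -1.24 in the higher 18S set. The median log2 fold change of the 20 was -0.34, with 18 of 20 below 0. Of 14 centriole and centrosome genes 3 fell and 0 rose (median -0.46): Cdk5rap2 (log2 fold change -0.96, limma adjusted p = 0.0167), Tubgcp2 (-0.81, limma adjusted p = 0.0314) and Cep63 (-0.63, limma adjusted p = 0.0161). Cep63 had values of 67674, 70402, 61953 and 56012 across CTL 1 to 4 and of 45039, 39992, 41297 and 38725 across SKO 1 to 4, so that each SKO library was below each CTL library in either set.

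Some markers of germ and Sertoli cells also passed the test, where 11.9% of all genes tested rose and 7.93% fell. Of 15 markers of pachytene and later spermatocytes, Aurkc among them, 0 rose and 6 fell (median log2 fold change -0.52), the largest falls being in Adam2 (-0.81), Piwil1 (-0.74) and Spag6l (-0.72). Their summed level was 824213 to 1140633 in CTL and 648894 to 778420 in SKO. Of 15 spermatogonial markers 3 rose, Stra8 (log2 fold change 1.05), Sohlh1 (0.95) and Uchl1 (0.93), and 0 fell (median 0.45, summed level 78910 to 112836 in CTL and 82720 to 100349 in SKO). Of 18 Sertoli cell markers 13 rose, the largest of these rises being in Amh (log2 fold change 1.63), Shbg (1.51) and Ctsl (1.37), and the tubulin gene Tuba3b fell (summed level 326055 to 464180 in CTL and 410038 to 613387 in SKO). List medians within the lower and higher 18S sets were -0.66 and -0.23 for pachytene and later spermatocytes. They were 0.60 and 0.01 for spermatogonia and 0.90 and 0.96 for Sertoli cells.

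Spermatid markers varied between libraries within groups. None of the 12 round and 10 elongating spermatid markers passed (limma; 2 and 1 at an unadjusted p below 0.05), yet the summed level of the elongating list was 790534 and 948567 in CTL 1 and 2, 457692 and 211943 in CTL 3 and 4, 743864 in SKO 1 and 266450 to 299765 in the other SKO libraries. The most abundant of each list were Sox30, with 21799 ± 5600 in CTL and 14655 ± 2526 in SKO (SD, n = 4 per group), and Odf2, with 218529 ± 61031 in CTL and 138317 ± 24825 in SKO (SD, n = 4 per group, limma adjusted p = 0.0878 and 0.0905). No listed marker of these cell types in the table was at 0. The summed level of the 51 members was highest in CTL 3 (616945) and CTL 4 (596593), 404709 and 380487 in CTL 1 and CTL 2, 436474 in SKO 4 and 308536 to 335382 in SKO 1 to 3. The part of cell makeup in the members' differences was not tested.

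**Figure D5:**
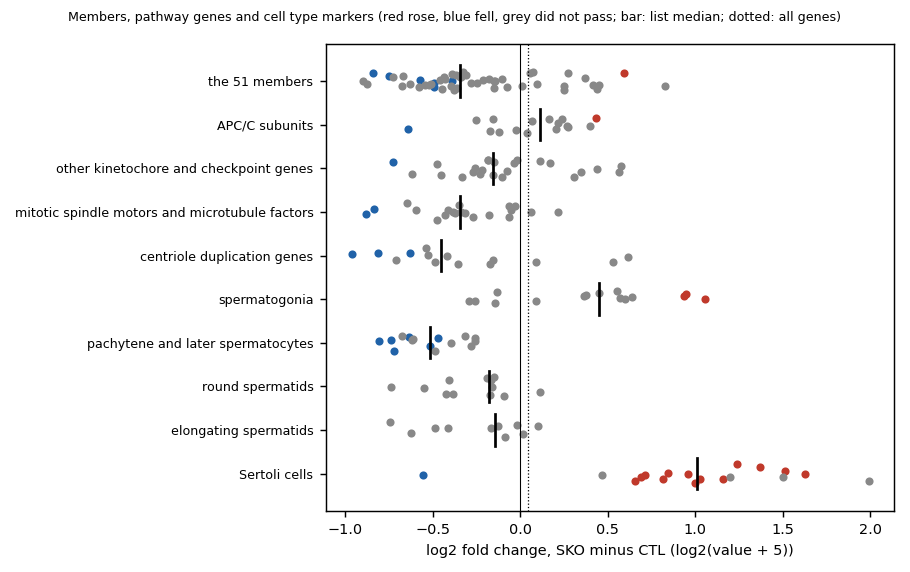
Log2 fold changes (SKO minus CTL) of the 51 members, of 4 lists of other pathway genes and of markers of 5 cell types; points are genes (red rose, blue fell, grey did not pass), bars are list medians and the dotted line is the median of all genes tested. The members' median of -0.34 lies between those of pachytene markers at -0.52 and spermatogonial markers at 0.45. Within the higher 18S libraries, not drawn here, the 3 medians were -0.24, -0.23 and 0.01 in that order.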

How the data were processed

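Testis RNA of 4 CTL and 4 N6amt1-SKO libraries was sequenced. Per the submitters' processing notes, reads passed CASAVA and fastp, then alignment tool HISAT2 2.0.5 (mm10) and the counter featureCounts 1.5.0-p3. Not given in the sources used here are the scaling method, annotation and strand setting. The deposited values are whole numbers that act as a score: in 6 libraries they are read counts times a factor, rounded, so no count model was used. CTL 1 and CTL 2 may hold plain counts. TMM factors (trimming 30% and 5%) scaled the values, which were taken as log2(value + 5) and tested with limma 3.58.1 in R 4.3.3, with a variance trend, two-sided, without covariates, on 17066 of 17121 genes with at least 25 in at least 4 libraries. Benjamini-Hochberg adjustment ran over all of them with a threshold of 0.05. Fold changes on this scale are understated for low genes. The library sets were split at an 18S share of 0.5%. The method was tested on simulated data with libraries drawn independently and without the 18S library sets. That simulation therefore does not cover calls made under such a split.

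The members and lists were chosen with earlier results of these data known. Named were all called members, a list of 27 further or overlapping genes fixed by role, the extremes of each role, and up to 3 called genes in each direction per other list. The groups share replicate numbers, but whether these pair the libraries is not known, and the main fit did not pair them. Gene positions, lengths and overlaps came from GENCODE M21 (GRCm38), and promoter sequences from RefSeq (GRCm38.p6). Alternatives were 4 scalings in all, the added constant, the filter, the variance trend, the library sets, a replicate block, left-out libraries and a length correction.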

Additional observations from a re-analysis of the deposited data

Results flagged for a closer look

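In 5 of 102 groups of 4 libraries (51 members in 2 groups), 1 library lay farther from its nearest neighbour, relative to the range of its group, than Dixon's 95% critical value. Chance gives about 1 in 20 groups. SKO 4 was the highest SKO library for 3 of these, Cenpl (2707), Cenpu (4618) and Incenp (16910). It is the 1 SKO library with a higher 18S share. CTL 4 was the highest CTL library for Fbxo5 (497.3) and the lowest for Fzr1 (14066).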

How the results depend on the processing

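None of the 7 called members changed direction in any of the 22 alternatives, and single calls were lost in several. The 7 were called on these same libraries, so their unchanged direction is no independent support. Against 6 lower and 1 higher, members called lower were 0 with column totals, 3 without a variance trend, 14 with the 18S set as covariate, 14 in the lower 18S set and 1 in the higher, and 23 without CTL 1 and CTL 2 (13.7% of all genes lower). Members called higher were 2 with upper quartile factors, 4 with column totals, 2 with a minimum of 200, 4 with the covariate and 0 within the higher set. Leaving out 1 library gave 0 to 1 higher and 0 to 11 lower. Against 2038 higher and 1354 lower of all genes, column totals gave 4885 and 456, the covariate 2210 lower, the lower set 3194 and 2283, the higher set 51 and 287, and leaving out CTL 1 and CTL 2 2322 lower. Leaving out 1 library gave 0 to 2455 higher and 0 to 1526 lower. Of all calls 60.1% were higher with TMM, 49.2% with median-ratio factors and 91.5% with column totals. Against 1 higher and 7 lower of the other pathway genes, those higher were 0 with median-ratio factors, no trend, the higher set or length-corrected values, 2 with upper quartile factors or a minimum of 200, 3 without CTL 1 and CTL 2, 4 in the lower set, 5 with the covariate and 11 with column totals. Those lower were 2 with column totals, 3 in the higher set, 12 length-corrected, 13 in the lower set, 14 with the covariate and 20 without CTL 1 and CTL 2. Leaving out 1 library gave 0 to 2 higher and 0 to 10 lower. The cause of these shifts was not tested. The fit without CTL 1 and CTL 2 mixes group with library set, as its CTL libraries are all of the higher set.

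In a check for pairing, same-numbered CTL and SKO libraries had correlations of 0.673, 0.0119, 0.082 and 0.231. These are on a different scale from plain correlations of libraries between the groups, which were 0.935 to 0.983. CTL 1 and CTL 2 matched SKO 1 best (0.673 and 0.706), CTL 3 matched SKO 4 (0.333) and CTL 4 matched SKO 3 (0.35). Similarity of values cannot settle whether the numbers pair the libraries. A replicate block gave 12 members lower and 2 higher, 27.5% of the 51 against 22.6% of all genes, and 11 pathway genes lower and 2 higher. The precision is limited by 4 libraries per group and, in the higher set, by 1 SKO library.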

Other observations

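Markers of other somatic cells were also measured, where 11.9% of all genes tested rose and 7.93% fell. Of 9 Leydig cell markers 2 rose, the steroid enzyme gene Hsd3b1, from 6533 ± 978 to 13355 ± 1239 (SD, n = 4 per group, limma adjusted p = 0.0123), and Nr5a1, from 7004 ± 801 to 10967 ± 1029 (SD, n = 4 per group, limma adjusted p = 0.0159), with a median log2 fold change of the list of 0.06. In 4 of the 9 the change was below 0 without passing, among them the steroid enzyme genes Cyp17a1, with 19479 ± 5914 in CTL and 10635 ± 5649 in SKO (SD, n = 4 per group, limma adjusted p = 0.0686), and Hsd17b3, with 482 ± 177 in CTL and 223 ± 109.7 in SKO (SD, n = 4 per group, limma adjusted p = 0.101), both named after their values were seen. Of 6 peritubular myoid markers 3 rose, Myl9 (log2 fold change 0.94), Acta2 (0.78) and Des (0.49), and of 10 macrophage markers 2 rose, Cd74 (log2 fold change 1.23) and C1qc (0.73). Of 5 heart muscle markers with rows in the table, of 10 listed, 2 rose, the troponin genes Tnni3 (values of 1797, 1469, 1077 and 1222 across CTL 1 to 4 and of 4429, 2826, 4658 and 4251 across SKO 1 to 4, limma adjusted p = 0.0123) and Tnnt2 (values of 476, 301, 428 and 408 across CTL 1 to 4 and of 849.6, 615, 881 and 917 across SKO 1 to 4, limma adjusted p = 0.0153). No gene of these 4 lists passed as lower (limma).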
